A study of Mus musculus with 12 samples.

Results

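CD200R, CD300 and CTLA-4 receptors let a cell of the immune system be held back or activated through contact with its neighbours. The genes described here are 10 of the 5545 genes analysed, picked by symbol: Cd200, Cd200r1, Cd200r2, Cd200r3, Cd200r4, Cd101, Cd300a, Cd300ld, Cd300lf and Ctla4. Their levels were compared in natural killer (NK) cells and type 1 innate lymphoid cells (ILC1) taken from the liver of C57BL/6 mice (C57BL/6J in the study's methods), of which 3 were lean and 3 obese. Lean mice were weaned onto RM1 chow and obese mice onto a palatable obesogenic diet (45% AFE fat) with added condensed milk, and both stayed on their diet for 12 weeks. NK cells were Lin- NK1.1+ CD49a- CD49b+ and ILC1 were Lin- NK1.1+ CD49a+ CD49b-, both from intrahepatic leukocytes. The study's methods describe the animals as female and the lineage cocktail as including antibodies to CD3, CD8α and Gr1. The replicates of a group are separate mice. Each of the 6 mice gave an NK library and an ILC1 library, so there were 12 libraries, each made from 2 ng of RNA, in 4 groups of 3 numbered 25, 26 and 27. The rise or fall of a transcript in such bulk libraries can come from more or fewer cells carrying it or from more or less of it per cell, which cannot be told apart.

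CD200 is a surface glycoprotein that serves as the ligand of CD200R1, an inhibitory receptor whose cytoplasmic tail recruits adaptor proteins that dampen activation. The CD200R locus of the mouse also holds Cd200r2, Cd200r3 and Cd200r4, close relatives of Cd200r1, of which CD200R3 and CD200R4 are described as pairing with the activating adaptor DAP12. The CD300 family is similarly split: CD300a and CD300lf carry tyrosine motifs of the ITIM type that recruit phosphatases, while CD300ld has a short tail and signals through partner chains. CD101 is an immunoglobulin-superfamily protein that restrains T cell activation, and CTLA-4 competes with CD28 for CD80 and CD86. The set is therefore a mixture of a ligand, inhibitory receptors and their activating relatives, and not a list of inhibitory receptors alone.

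The CD200R genes lie side by side on chromosome 16 (GRCm38, GENCODE vM21). Cd200r1 spans chr16:44765736-44794978, Cd200r4 spans chr16:44811733-44839150, Cd200r2 spans chr16:44867097-44915840 and Cd200r3 spans chr16:44943678-44981380, all on the plus strand. Cd200, the gene of the ligand of CD200R1, is farther along on the minus strand (chr16:45382135-45409053). The CD300 genes are on chromosome 11, with Cd300a at chr11:114890041-114904654 on the plus strand and Cd300ld (chr11:114982274-114989922) and Cd300lf (chr11:115116214-115133992) on the minus strand. Cd101 is at chr3:100993529-101029556 on the minus strand and Ctla4 at chr1:60887000-60915832 on the plus strand. No exon of another gene overlapped the exons of any of the 10 genes. Neighbouring paralogs are near copies in places, which matters for reading the counts below. The coding sequences of Cd200r1 and Cd200r4 aligned with 85.8% identity, those of Cd200r2 and Cd200r4 with 91.3%, and those of Cd300ld and Cd300lf with 80.5%. The longest stretches that are identical in each of these pairs, each inside a single coding exon of both genes, are shown because a read inside them cannot be assigned to either gene. They have 88, 110 and 134 bases, and were read from the GENCODE vM21 transcripts (5′ to 3′ on the transcript, no base marked).
Cd200r1 (chr16:44789689-44789776) and Cd200r4 (chr16:44833000-44833087), plus strand: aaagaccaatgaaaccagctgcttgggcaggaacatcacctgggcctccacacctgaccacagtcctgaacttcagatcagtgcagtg
Cd200r2 (chr16:44909521-44909630) and Cd200r4 (chr16:44833331-44833440), plus strand: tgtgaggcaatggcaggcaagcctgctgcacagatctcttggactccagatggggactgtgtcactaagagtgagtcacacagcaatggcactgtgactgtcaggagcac
Cd300ld (chr11:114987342-114987475) and Cd300lf (chr11:115126150-115126283), minus strand: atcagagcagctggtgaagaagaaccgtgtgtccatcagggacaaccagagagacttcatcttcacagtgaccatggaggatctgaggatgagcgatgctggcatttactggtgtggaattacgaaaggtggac
Such stretches were a small part of each gene. Of all windows of 50 bases along the transcripts, 1.16% of those of Cd200r1, 4.35% of Cd200r2, 2.69% of Cd200r3 and 4.94% of Cd200r4 also occurred in another gene. The shares were 3.18% for Cd300a, 3.89% for Cd300ld and 2.29% for Cd300lf, and 0% for Cd200, Cd101 and Ctla4. The read length is not given in the sources used here, so how many reads fell wholly inside such stretches is unknown.

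Over the genes analysed, libraries held 1666637 to 2826766 counts. ILC1 replicate 26 of the obese mice stood apart from the other 11 libraries. Its counts of 10 hepatocyte markers summed to 180251 against 45 to 1051 elsewhere, and of 10 Kupffer cell and macrophage markers to 29027 against 162 to 2993. Its neutrophil (4837 counts), endothelial (8752) and dendritic cell (2962) lists were also the highest. The ILC1 marker Cxcr6 had 3575 counts in it against 14264 to 23154 in the other ILC1 libraries and 61 to 855 in NK cells, and Cd69, the other ILC1 marker analysed, did not separate the populations as cleanly (2312 to 4027 counts in ILC1 and 1749 to 4252 in NK cells). The defining NK markers fixed for the check were not analysed here, so the NK label was not checked beyond the low Cxcr6. Values without this library are given beside those results that it changed most.

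Genes were called as changed at a Benjamini-Hochberg adjusted p below 0.05 and a fold change above 2 in edgeR's quasi-likelihood test. Of the 10 genes, 9 had enough counts to be tested among 2606 genes, and Cd200 did not. ILC1 differed from NK cells, as a mean over both diets, in 5 of the 9. Cd200r1, Cd200r2, Cd101 and Cd300ld were higher, against a background of 3.15% of all tested genes, and Cd300lf was lower, against 1.19%. Within lean mice Cd200r1, Cd200r2 and Cd101 were higher (background 1.5%) and Cd300lf was lower (0.806%). Within obese mice Cd200r1, Cd200r2 and Cd101 were higher (0.537%) and 0 of the 9 were lower (0.384%), with 5 of the 9 at an unadjusted p below 0.05, all of them higher, where 14.2% of all tested genes were below it in either direction. The median log2 fold change of the 9 over both diets was 4.03, against 0.04 over all genes tested. That median was the value of Cd200r3, which was not called. Without obese ILC1 replicate 26 the fitted value of Cd200r3 was 0.06, with obese ILC1 at 0 counts, so it gives no size. The middle value of the 9 was then that of Ctla4 (2.97, not called). A shift of the set was not tested. Without obese ILC1 replicate 26, edgeR called 3 higher and 1 lower over both diets (backgrounds 3.04% and 1.59%), with Cd300ld lost. In lean mice it then called 4 higher and 1 lower (1.93% and 1.19%), with Cd200r4 gained, and in obese mice again 3 higher and 0 lower (1.22% and 0.667%). Cd200r1, Cd200r2 and Cd101 were also called higher over both diets, in lean mice and in obese mice by DESeq2 (backgrounds 5.52%, 3.49% and 4.16%) and by edgeR's likelihood-ratio test (6.33%, 3.03% and 3.07%). DESeq2 also called Cd300ld higher in all 3 comparisons and Ctla4 over both diets, and the likelihood-ratio test also called Cd300a and Cd300ld over both diets and in obese mice, and Ctla4 over both diets. DESeq2 called 0 of the 9 lower in these comparisons (2.65%, 2.06% and 1.83%), with no adjusted p for Cd300lf, and the likelihood-ratio test called Cd300lf lower over both diets and in lean mice (2.57% and 1.65%) and 0 in obese mice (1.61%).

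The calls within obese mice were lost under several settings. Cd200r1 lost its call without obese NK replicate 25 (adjusted p = 0.0821) or 27 (0.0773), and Cd200r2 without obese NK replicate 25 (0.104) or 27 (0.0821). Cd101 lost it without any 1 of the obese NK or lean ILC1 libraries, with adjusted p from 0.0688 to 0.195. With the mouse as a block, which pairs the NK and ILC1 libraries of each animal, all 3 calls in obese mice were lost (0.148 for Cd200r1, 0.191 for Cd200r2 and 0.179 for Cd101, background 0%), and in lean mice Cd200r2 (0.0518) lost its call while Cd200r1 (0.0222) and Cd101 (0.0278) were called (0.614%). Over both diets the block left the same 3 genes called higher (1.23%) and 0 lower (0.537%), with adjusted p of 0.00655 for Cd200r1, 0.0132 for Cd200r2 and 0.00789 for Cd101. With the mouse as a block and obese mouse 26 left out, Cd200r1 (0.00665) and Cd200r2 (0.00723) were called in obese mice and Cd101 (0.45) was not.

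By diet, 0 of the 9 genes were called by edgeR's quasi-likelihood test in NK cells, 0 in ILC1 and 0 for the difference between these diet effects, and 0% of all tested genes in each of the 3 comparisons. At an unadjusted p below 0.05 there were 2 in NK cells (Cd101 and Cd200r1), 3 in ILC1 (Cd300a, Cd300ld and Cd300lf) and 3 for the difference (Cd101, Cd200r1 and Cd300lf), and of all tested genes 1.19%, 10.6% and 5.95% in these comparisons. In NK cells DESeq2 called Cd101 and Cd300ld as higher (0.221% of its tested genes were called higher), and the likelihood-ratio test of edgeR gave Cd101 alone (0.0767%). In ILC1 DESeq2 called 0 (2.06% of genes higher and 0.736% lower), with no adjusted p given for Cd300a and Cd300lf, and the likelihood-ratio test called Cd300lf higher (1.73%) and 0 lower (0.46%). For the difference, DESeq2 called Cd101 lower (0.465%) and 0 higher (0.179%), and the likelihood-ratio test Cd300lf (0.153% higher). Without obese ILC1 replicate 26, edgeR's quasi-likelihood test still called 0 of the 9 by diet (0% of genes in NK cells, and 0.0741% higher in ILC1), while DESeq2 called Cd101 and Cd200r1 higher in NK cells (0.29%) and, in ILC1, Cd300lf higher (1.39%) and Cd200r3 lower (1.47%). The median log2 fold change of the 9 was 1.41 in NK cells, where that of all tested genes was 0.09, and 0.29 in ILC1, where it was 0.02. The median in NK cells was the value of Cd200r3, from 4, 0 and 0 counts in lean and 10, 4 and 0 in obese libraries. It does not show a shift of the set.

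**Figure D1:**
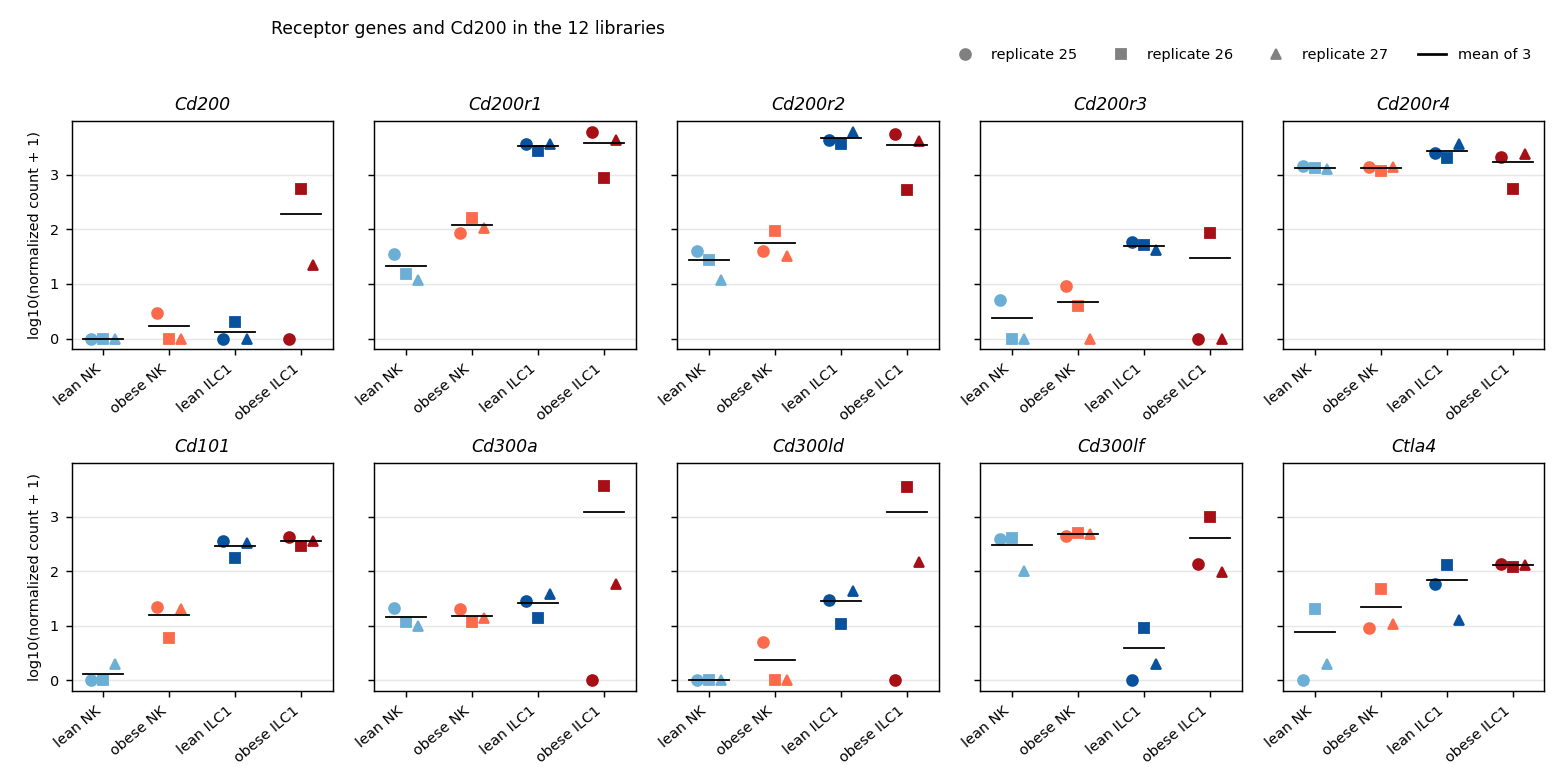
Authors' normalized count of each of the 10 genes in each of the 12 libraries, as log10(normalized count + 1), by group, with symbols for replicates 25, 26 and 27 and a line at the mean normalized count of the 3. Cd200r1, Cd200r2 and Cd101 are higher in all 6 ILC1 libraries than in all 6 NK libraries, and the highest Cd300a, Cd300ld, Cd300lf and Cd200 points belong to obese ILC1 replicate 26.

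Cd200, the gene of the ligand, was close to absent outside obese ILC1. It had 0 counts in all lean NK libraries, 3, 0 and 0 in obese NK cells, and 0, 1 and 0 in lean ILC1 (replicates 25, 26 and 27). In obese ILC1 it had 0, 317 and 30 counts, so replicate 26 held 96.2% of the normalized counts of the 6 ILC1 libraries. The mean normalized count of obese ILC1 was 192 ± 315 (SD, n = 3), and 10.5 ± 14.8 (n = 2) without replicate 26. Outside the fit, an exact permutation test of 3 libraries against 3, two-sided, gave p = 1 in NK cells and p = 0.4 in ILC1, where the smallest possible p was 0.1. An exact test of sign changes over the 6 mice gave p = 0.375 for ILC1 against NK cells.

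Cd200r1, the inhibitory receptor for CD200, was higher in ILC1 than in NK cells in both diets. Its normalized counts were 35, 14 and 11 in lean NK cells, 85, 164 and 107 in obese NK cells, 3661, 2774 and 3673 in lean ILC1 and 6171, 860 and 4383 in obese ILC1. All 6 ILC1 libraries lay above all 6 NK libraries, and ILC1 exceeded NK cells in 6 of 6 mice. Of the 9 genes, 3 showed this separation over both diets (Cd200r1, Cd200r2 and Cd101; background 3.03%), and 0 the opposite one (2.65%). The difference was 6.17 ± 0.545 on the log2 scale (SE; adjusted p = 8.23e-05 in edgeR), 7.38 ± 0.818 in lean mice (adjusted p = 0.000952) and 4.97 ± 0.724 in obese mice (adjusted p = 0.00807). With obese ILC1 replicate 26 left out, the mean of obese ILC1 rose from 3800 ± 2700 (n = 3) to 5280 ± 1260 (n = 2), and the fold in obese mice from 32.1 to 44.5 as a ratio of means.

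In NK cells, Cd200r1 was 5.93 times as high in obese as in lean mice by the ratio of mean normalized counts (119 ± 40.8 against 20 ± 13.1, SD, n = 3). The lowest obese library (85) lay above the highest lean library (35). Of the 9 genes, 3 separated obese from lean NK cells without overlap in the higher direction (Cd200r1, Cd101 and Cd300lf, background 9.9%) and 0 in the lower (6.33%). On the log2 scale the change was 2.58 ± 0.673, with an edgeR adjusted p of 1, and 0.192 without obese ILC1 replicate 26, when the log2 fold change was again 2.58. DESeq2 gave an adjusted p of 0.124 with all libraries and 6.73e-05 without obese ILC1 replicate 26. The NK level stayed far below that of ILC1 in both diets. As raw counts, Cxcr6 and the sum of the T cell markers were higher in the same NK libraries. Cxcr6 had 108, 74 and 61 counts in lean and 255, 855 and 179 in obese NK cells, and the 6 T cell markers summed to 266, 418 and 304 in lean and 715, 1318 and 581 in obese NK cells. As normalized counts the T cell sums were 248, 431 and 291 in lean and 566, 869 and 431 in obese NK cells. The lowest obese library then equalled the highest lean one. Nearly all of the T cell sum was Cd3d, Cd3e and Cd3g. Cd4 had 0, 8 and 0 counts in lean and 3, 0 and 1 in obese NK cells. Cd8a had 0, 0 and 0 in lean and 1, 0 and 0 in obese, and Cd8b1 0, 0 and 0 and 1, 14 and 2. Cd69, the other ILC1 marker, had 1749, 2651 and 2652 counts in lean and 2653, 4252 and 2491 in obese NK cells, with a log2 fold change of 0.01 ± 0.245 (adjusted p = 1). Obese replicate 26 was the highest for Cd200r1, Cxcr6 and the T cell sum alike, and the part of these in the Cd200r1 difference was not tested. In ILC1 the Cd200r1 libraries overlapped by diet through obese replicate 26 alone (log2 fold change 0.17 ± 0.611, adjusted p = 0.964). Obese replicates 25 and 27 lay above all lean ILC1 libraries, and without replicate 26 the log2 fold change was 0.65 ± 0.397 (adjusted p = 0.618) and the ratio of means went from 1.13 to 1.57. With all libraries, the diet effects in ILC1 and NK cells differed by -2.41 ± 0.897 (adjusted p = 0.793).

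Cd200r2, the gene of the set with the highest level per length in lean ILC1, followed the same pattern between populations. Its normalized counts were 40, 27 and 11 in lean NK cells and 40, 94 and 31 in obese NK cells, and 4425, 3611 and 6061 in lean and 5680, 535 and 4218 in obese ILC1. Every ILC1 library lay above every NK library, including replicate 26, the lowest of the ILC1 libraries. ILC1 exceeded NK cells by 6.73 ± 0.662 on the log2 scale (edgeR adjusted p = 0.000209), and by 6.96 ± 0.411 without replicate 26 (1.66e-06). Unlike for Cd200r1, lean and obese NK libraries overlapped (log2 fold change 1.12 ± 0.769, adjusted p = 1). The obese and lean ILC1 libraries overlapped too, with a log2 fold change of -0.44 ± 0.725 (adjusted p = 0.904) that became 0.08 without replicate 26.

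Cd200r4, an activating-type relative, was the CD200R gene of NK cells. It had 1457, 1313 and 1301 normalized counts in lean and 1382, 1188 and 1380 in obese NK cells, 2496, 2066 and 3695 in lean ILC1 and 2081, 556 and 2447 in obese ILC1. The libraries of obese and lean NK cells overlapped, and the lean mean was 1.03 times the obese mean (log2 fold change -0.01 ± 0.437). Lean ILC1 were above lean NK cells in every library, by 2.03 times as a ratio of means, but were not called with all libraries. In lean mice the difference was 1.03 ± 0.441 on the log2 scale with an adjusted p of 0.353, and 1.01 ± 0.203 with 0.0162 once obese ILC1 replicate 26 was left out of the shared model. As a mean over both diets it was 0.68 ± 0.31 (adjusted p = 0.264), and 0.88 (adjusted p = 0.00418, fold below 2) without that library. Its ratio of ILC1 to NK means in lean mice compares with 168 for Cd200r1 and 181 for Cd200r2 in the same libraries.

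Cd200r3, known from basophils and mast cells, was at the lower end of detection. It had 4, 0 and 0 counts in lean NK cells, 10, 4 and 0 in obese NK cells, 55, 52 and 40 in lean ILC1 and 0, 49 and 0 in obese ILC1. Lean ILC1 libraries were close to each other and all above the NK libraries, but the log2 fold change over both diets, 4.03 ± 1.69, was not called (adjusted p = 0.22). In obese ILC1 the only library with counts was replicate 26. The 4 mast cell and basophil markers summed to 25, 113 and 67 counts in lean ILC1 and to 0, 1202 and 117 in obese ILC1, and 2 of them, Cyp11a1 and Csf2rb, had 0 counts in all lean ILC1 libraries. Csf2rb made up 979 of the 1202 counts. Cpa3 did not follow Cd200r3, with 25, 86 and 67 counts in lean and 0, 87 and 71 in obese ILC1. With replicate 26 left out the obese ILC1 group was at 0, and DESeq2 then called Cd200r3 lower in obese than lean ILC1 (adjusted p = 0.02, background 1.47%) where edgeR did not. A fitted fold against a group at 0 depends on the prior count and gives no size of the difference.

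The makeup of the family differed between the populations. Of the summed counts of the 4 CD200R genes, Cd200r4 took 96.8% ± 1.76 (SD, n = 3) in lean NK cells, 88.1% ± 5.26 in obese NK cells, 25.1% ± 2.06 in lean ILC1 and 21.4% ± 6.23 in obese ILC1. Cd200r1 took 1.39% ± 0.803, 7.98% ± 2.96, 31.4% ± 3.69 and 42.1% ± 2.3 in the same order. Its share in NK cells ran from 0.797% to 2.3% in lean and from 5.6% to 11.3% in obese mice, and in ILC1 from 27.3% to 34.4% in lean and from 39.7% to 44.3% in obese mice, without overlap within either population. Cd200r2 took 1.79%, 3.73%, 43% and 35.1%, with lean and obese overlapping in NK cells. Obese ILC1 replicate 26, with 1161 counts of the family against 8610 to 15596 in the other ILC1 libraries, still had the ILC1 makeup, with 27.3% Cd200r4. The shares are of raw counts and were not tested.

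**Figure D2:**
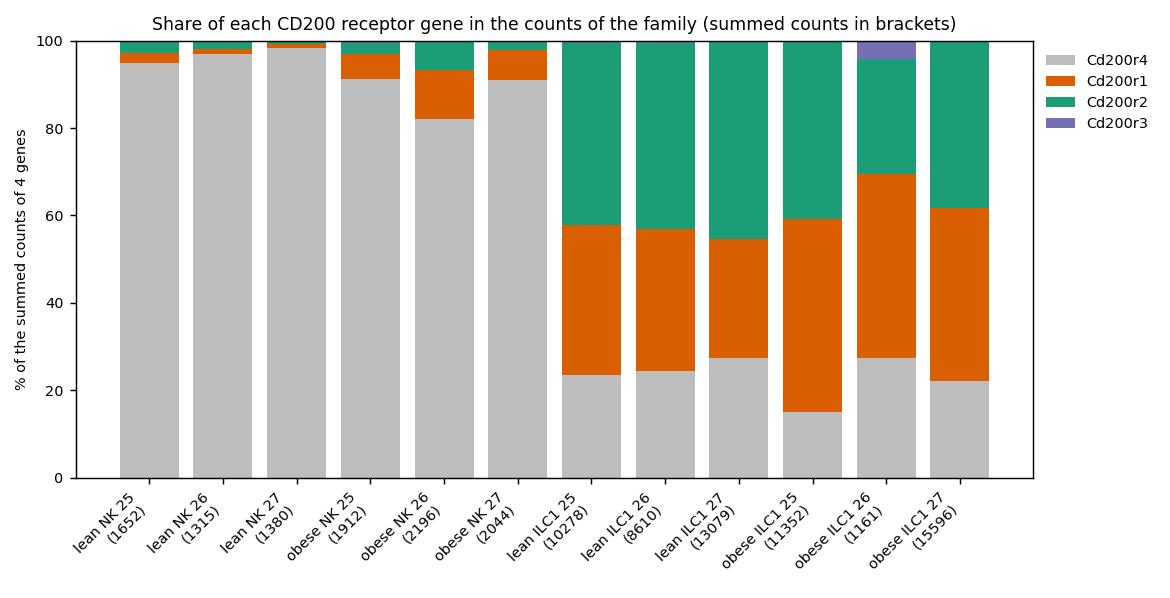
Share of Cd200r4, Cd200r1, Cd200r2 and Cd200r3 in the summed counts of these 4 genes, as stacked bars from 0 to 100% for each library, with the summed counts under each bar. Cd200r4 makes up 82% to 98.4% in the 6 NK libraries and 14.9% to 27.4% in the 6 ILC1 libraries.

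Cd101 was higher in ILC1 than in NK cells, and was hardly detected in lean NK cells. Lean NK libraries had 0, 0 and 1 counts and obese NK libraries 27, 8 and 26. Lean ILC1 had 353, 177 and 317 counts and obese ILC1 343, 169 and 507, so replicate 26 was the lowest of the ILC1 libraries in counts, and in normalized counts (296) lay within their range. With the floor set at 3 counts per library, lean ILC1 were at least 93.4-fold above lean NK cells, and obese ILC1 were 23.9-fold above obese NK cells as a ratio of means (26.0-fold without replicate 26). The fit gave 6.94 ± 0.689 over both diets (log2, adjusted p = 0.000209), and ILC1 were higher in 6 of 6 mice. With so few counts in lean NK cells the fitted values of Cd101 depend on the prior count.

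Obese NK cells had at least 4.85 times the Cd101 of lean NK cells against the same floor. All 3 obese libraries (normalized counts 21, 5 and 19) were above all 3 lean libraries (0, 0 and 1). The edgeR quasi-likelihood log2 fold change was 5.17 ± 0.99 with an adjusted p of 0.757, while DESeq2 (adjusted p = 0.0143) and edgeR's likelihood-ratio test (adjusted p = 0.0102) called it. Over all alternatives that left in every library or took out any 1 of them, the adjusted p of this comparison ran from 0.0102 to 1. Marker counts differed beside those of Cxcr6 and T cells given for Cd200r1. The 4 neutrophil markers summed to 0, 1 and 0 counts in lean and 50, 7 and 12 in obese NK cells. B cell markers were higher too (32, 38 and 0 against 112, 64 and 69). The 10 hepatocyte markers summed to 45, 73 and 231 counts in lean and 1051, 990 and 245 in obese NK cells. As normalized counts the hepatocyte sums were 42, 75 and 221 against 833, 654 and 183, so the diets overlapped. The Kupffer and macrophage sums overlapped by diet (255, 162 and 1210 against 412, 353 and 331), as did the mast cell, dendritic cell and endothelial sums. The sum of 1210 was nearly all Cd163 (786) and Cd68 (423). Cd5l, Csf1r and Cd14 had 0 counts in all lean NK libraries. In obese NK libraries Cd5l had 22, 29 and 14 counts, Csf1r 22, 21 and 9, and Cd14 17, 8 and 9. C1qc had 0, 1 and 0 counts in lean and 8, 7 and 4 in obese NK cells. The other macrophage markers overlapped by diet in normalized counts. Obese NK replicate 26, with the fewest Cd101 counts of the obese NK libraries (8), had the most Cxcr6 (855) and the highest T cell sum (1318). The part of such cells in the Cd101 difference was not tested. In ILC1 the diet groups overlapped (log2 fold change 0.29 ± 0.716, adjusted p = 0.942). The difference between the diet effects, -4.88 ± 1.2, had an adjusted p of 0.647 in edgeR and 0.0487 in DESeq2.

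**Figure D3:**
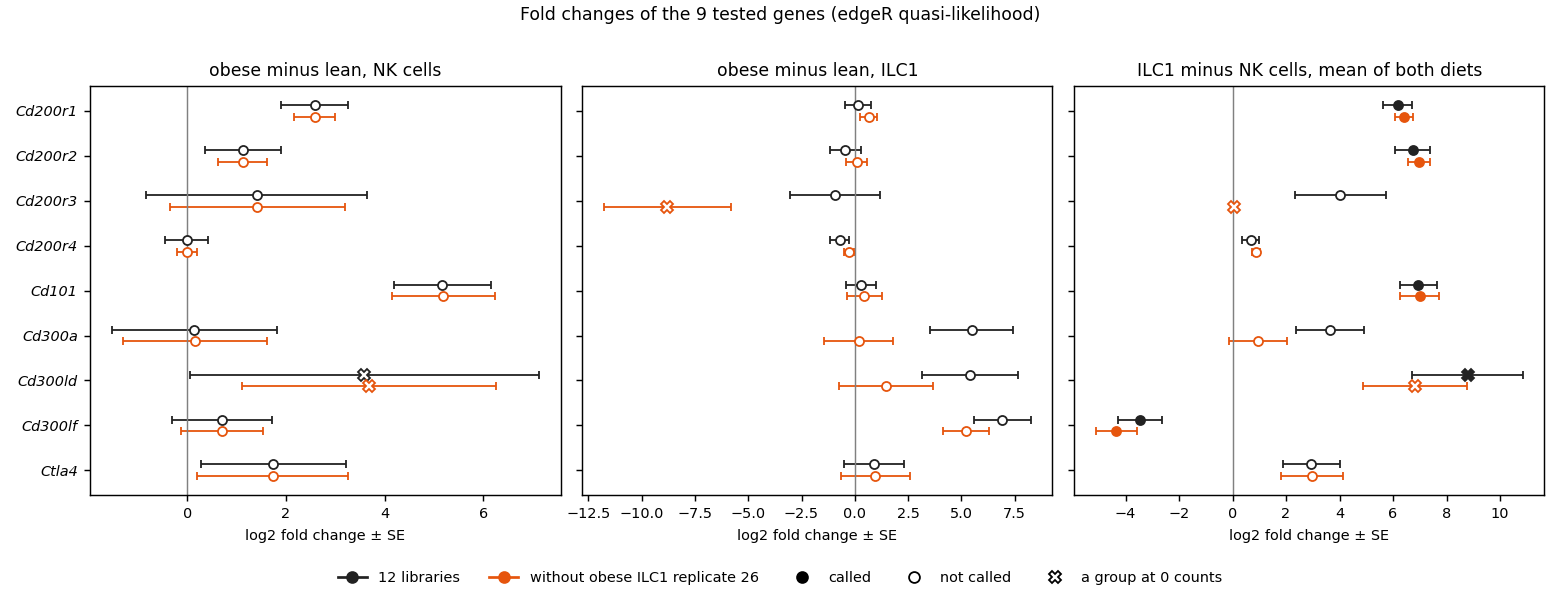
Log2 fold change with its standard error (edgeR quasi-likelihood) of the 9 tested genes for obese minus lean NK cells, obese minus lean ILC1, and ILC1 minus NK cells as a mean over both diets, in black with all 12 libraries and in orange without obese ILC1 replicate 26. Filled symbols passed both thresholds, and crosses mark fits in which a group had 0 counts, so that the value depends on the prior count. No symbol is filled in the first 2 panels, while Cd200r1, Cd200r2 and Cd101 are filled in the third with and without replicate 26.

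The CD300 genes behaved differently from each other. Cd300lf, an inhibitory member that binds lipids such as ceramide, was the only gene of the set with a lower level in ILC1. It had 416, 393 and 107 counts in lean NK cells, 570, 756 and 646 in obese NK cells, 0, 8 and 1 in lean ILC1 and 109, 553 and 137 in obese ILC1. Lean NK cells therefore exceeded lean ILC1 by 99.3-fold as a ratio of means. In lean mice, 6 of the 9 genes separated ILC1 from NK cells without overlap in the higher direction (background 13.6%), and Cd300lf was the only one to do so in the lower direction (11.4%). It differed by -6.57 ± 1.33 on the log2 scale in lean mice (edgeR adjusted p = 0.0261) and -0.35 ± 1.02 in obese mice (adjusted p = 0.96), where ILC1 and NK libraries overlapped through obese ILC1 replicate 26 alone. Without it the value in obese mice was -2.08 ± 1.01 (adjusted p = 0.377), with NK cells 4.13-fold above ILC1 as a ratio of means. In obese mice 4 genes were without overlap in the higher direction (Cd200r1, Cd200r2, Cd101 and Ctla4, background 9.4%) and 0 in the lower (13.7%). Over both diets the value was -3.46 ± 0.814 (adjusted p = 0.0308), and -4.34 (adjusted p = 0.00534) without obese ILC1 replicate 26. The calls of Cd300lf depended on the libraries and the tool. The likelihood-ratio test (0.000366 over both diets, 3.27e-05 in lean mice) and DESeq2 without replicate 26 (1.77e-12 and 3.04e-13) called it lower. With all libraries DESeq2 gave log2 fold changes of -3.45 and -6.63 and no adjusted p. In the mean of both diets the call held when lean NK replicate 27, lean ILC1 replicate 26, or obese ILC1 replicate 25 or 26 was left out, and was lost on leaving out any 1 of the other 8 libraries (adjusted p from 0.00534 to 0.0977 over the 12). In lean mice it was lost without lean NK replicate 25 or 26, any obese NK replicate, or lean ILC1 replicate 25 or 27 (adjusted p from 0.00564 to 0.141). With the mouse as a block both calls were lost, with adjusted p of 0.0667 over both diets and 0.0813 in lean mice.

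Cd300lf was also the only gene of the 9 whose ILC1 libraries separated by diet. Obese ILC1 had normalized counts of 134, 970 and 97 and lean ILC1 0, 8 and 1, so that no library overlapped (background 7.29% higher, and 0 of the 9 lower against 7.94%). The ratio of means was 133, and 38.5 without replicate 26. The fit gave 6.92 ± 1.35 (log2) with an edgeR adjusted p of 0.208, and 5.21 with 0.244 without replicate 26. The likelihood-ratio test gave an adjusted p of 0.000186, and DESeq2 gave none with all libraries and 4.65e-06 without replicate 26. The difference between the diet effects in ILC1 and NK cells was 6.22 ± 1.61 (adjusted p = 0.647 in edgeR, 0.0195 in the likelihood-ratio test). Markers of myeloid cells moved in the same libraries. The 10 Kupffer cell and macrophage markers summed to 450, 454 and 172 counts in lean ILC1, with 8, 9 and 6 of them detected, and to 1589, 29027 and 2993 in obese ILC1, with 4, 10 and 9 detected. In obese ILC1 replicate 25, Adgre1 (520 counts), Clec4f (250), Cd68 (745) and C1qb (74) made up that sum, and C1qa, C1qc, Csf1r, Cd5l, Cd14 and Cd163 were at 0. The 4 neutrophil markers summed to 0 in every lean ILC1 library and to 3, 4837 and 35 in obese ILC1. The part of these cells in the Cd300lf difference was not tested.

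In NK cells Cd300lf was higher in all obese libraries (normalized counts 451, 499 and 480) than in all lean ones (387, 405 and 102), with a log2 fold change of 0.7 ± 1.02 and an adjusted p of 1. Lean replicate 27, the lowest, also detected the fewest genes of all libraries (1948), and its Kupffer and macrophage markers summed to 1210 counts against 255 and 162 in the other lean NK libraries. Only 3 of the 10 markers were detected in it, Cd163 (786 counts), Cd68 (423) and C1qb (1), and Clec4f, Adgre1 and Csf1r were among those at 0.

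Cd300a, another inhibitory member, was low in all libraries but obese ILC1 replicate 26. It had 21, 11 and 9 counts in lean NK cells, 24, 16 and 18 in obese NK cells, 26, 13 and 36 in lean ILC1 and 0, 2062 and 81 in obese ILC1. Replicate 26 held 96.4% of the normalized counts of the 6 ILC1 libraries. The diet difference in ILC1 was 5.48 ± 1.94 on the log2 scale (adjusted p = 0.308) with replicate 26 and 0.19 without it. The ratio of means fell from 47.7 to 1.11. Against NK cells, only the likelihood-ratio test of the tools run on all libraries called it, over both diets (adjusted p = 0.0273) and in obese mice (0.0275), and without replicate 26 the edgeR quasi-likelihood value over both diets fell from 3.63 to 0.96.

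Cd300ld, the activating relative, had 0 counts in all lean NK libraries, 5, 0 and 0 in obese NK cells, 28, 10 and 42 in lean ILC1 and 0, 2028 and 212 in obese ILC1. Lean ILC1 lay above lean NK cells, at least 8.84-fold against the floor. Its call as higher in ILC1 than NK cells (adjusted p = 0.0422) was lost without obese ILC1 replicate 26 (adjusted p = 0.0737), and also on leaving out any other library except obese ILC1 replicate 25, so that the adjusted p ran from 0.00675 to 0.147, and with the mouse as a block (0.424). Since the lean NK group was at 0, the fitted log2 fold change of 8.79 depends on the prior count. Over both diets DESeq2 called it with (2.58e-13) and without replicate 26 (0.00883), and with all libraries DESeq2 called it in lean (9.13e-11) and obese mice (0.00325) and the likelihood-ratio test over both diets (0.000252) and in obese mice (0.023). DESeq2's call of Cd300ld in obese NK cells rested on 5 counts in a single library. Between diets in ILC1, 93.9% of the normalized counts were in replicate 26, and the ratio of obese to lean means fell from 45.2 to 2.74 without it.

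**Figure D4:**
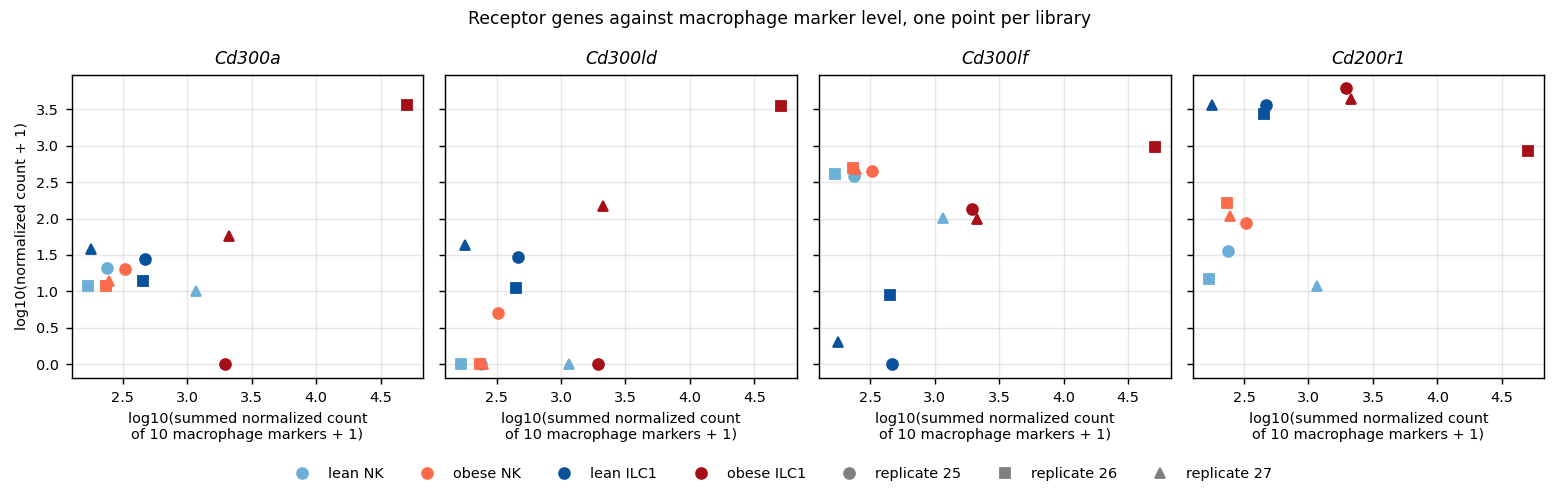
Normalized count of Cd300a, Cd300ld, Cd300lf and Cd200r1, as log10(normalized count + 1), against the summed normalized count of 10 Kupffer cell and macrophage markers on the same scale, a point per library. Obese ILC1 replicate 26 lies far to the right, with the highest Cd300a, Cd300ld and Cd300lf and the lowest Cd200r1 of the ILC1 libraries.

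Ctla4 was detected in most libraries with a wide spread. Its counts were 0, 18 and 1 in lean NK cells, 10, 69 and 14 in obese NK cells, 56, 134 and 12 in lean ILC1 and 110, 68 and 180 in obese ILC1. ILC1 exceeded NK cells in 6 of 6 mice, and obese ILC1 were above obese NK cells in every library (normalized counts 135, 119 and 128 against 8, 46 and 10). Over both diets ILC1 exceeded NK cells by 2.95 ± 1.07 (log2, adjusted p = 0.148 in edgeR, 0.014 in DESeq2 and 0.0302 in the likelihood-ratio test). By diet the libraries overlapped in both populations, with 1.74 ± 1.47 in NK cells and 0.88 ± 1.41 in ILC1 (log2, adjusted p = 1 and 0.904). T cell markers moved with the population too: Cd3g had 10266 to 13275 counts in 4 ILC1 libraries, 1991 and 2875 in obese ILC1 replicates 26 and 27, and 129 to 584 in NK cells. Cd8a was at 0 in all ILC1 libraries but obese replicate 26 (201 counts), and Cd4 ran from 0 to 334 counts in ILC1 and from 0 to 8 in NK cells. The part of T cells in the ILC1 levels of Ctla4, Cd101 and the CD200R genes was not tested.

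On a scale of counts per kilobase of exon and per 1000000 counts of the genes analysed, the genes can be ranked within a group. In lean NK cells Cd200r4 was first (343 ± 34.8, SD, n = 3) and Cd300lf next (30.3 ± 17.9), followed by Cd200r2 (7.73 ± 4.64) and Cd200r1 (3.14 ± 2.18). The Cd300lf and Cd200r2 libraries overlapped, as did those of Cd200r2 and Cd200r1. In obese NK cells Cd200r4 (347 ± 31.8) and Cd300lf (49.9 ± 1.95) again led, followed by Cd200r1 (19.1 ± 6.44) and Cd200r2 (16.9 ± 10.5), which also overlapped, and Ctla4 (4.92 ± 4.84), Cd101 (2.49 ± 1.44) and Cd300a (1.63 ± 0.516). In lean ILC1 the order was Cd200r2 (1420 ± 353), Cd200r4 (713 ± 206), Cd200r1 (535 ± 82.3), Cd101 (46.1 ± 16.4) and Ctla4 (15.5 ± 13.8), with Cd200r2 above Cd200r4 in every library, Cd200r4 and Cd200r1 overlapping, and Cd101 apart from Ctla4 only by their means, since the lowest Cd101 library (27.9) was below the highest Ctla4 library (30.2). Cd300lf (0.307 ± 0.444) was at the bottom beside Cd200 (0.0527 ± 0.0912). In obese ILC1 Cd200r2 (1010 ± 801), Cd200r1 (569 ± 433) and Cd200r4 (416 ± 299) led but could not be ordered, since the values of replicate 26 (95.1, 79.9 and 84.6) were far below those of the others.

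Other genes of these families and pathways gave a background for the set. Of the other CD300 genes 5 were analysed and 3 tested (Cd300c, Cd300e and Cd300lb), and edgeR's quasi-likelihood test called 0 in each of the 6 comparisons. At an unadjusted p below 0.05 there were 2 higher in ILC1 than NK cells over both diets (Cd300c and Cd300e, where 19% of all tested genes were below it) and 0 by diet in either population, and DESeq2 called Cd300e higher in ILC1 over both diets (background 5.52%) and in obese mice (4.16%), and 0 by diet. Obese ILC1 replicate 26 held 89.1%, 72.8% and 96.1% of their ILC1 normalized counts. Of other receptors with inhibitory function, 13 were analysed and 9 tested, and with all libraries only Cd160 was called by edgeR's quasi-likelihood test in any of the 6 comparisons, as higher in ILC1 over both diets (log2 fold change 2.82 ± 0.417, adjusted p = 0.00244) and in lean mice. Cd160, which binds HVEM, had 1020 ± 213 normalized counts in lean NK cells, 1950 ± 269 in obese NK cells, 10800 ± 743 in lean ILC1 and 9300 ± 7540 in obese ILC1 (13000 ± 5530 without replicate 26). Without replicate 26 it was called in obese mice too (2.7 ± 0.25 on the log2 scale, adjusted p = 0.00023). The NK libraries of obese mice lay above those of lean mice for Cd160, with a log2 fold change of 0.97 ± 0.557 (adjusted p = 1). By diet, Clec12a alone of the list was at an unadjusted p below 0.05 in NK cells (adjusted p = 1) and in ILC1 (6.28 ± 2.04 on the log2 scale, adjusted p = 0.289), and DESeq2 called it in ILC1. Clec12a, a lectin receptor of myeloid cells, had 0 counts in all lean NK libraries, 36, 11 and 19 in obese NK cells, 44, 0 and 0 in lean ILC1 and 301, 1884 and 203 in obese ILC1. Over both diets DESeq2 and the likelihood-ratio test also called Btla, Cd5 and Clec12a higher in ILC1. The other abundant receptors had no quasi-likelihood call with all libraries: Cd244 (log2 fold change ILC1 to NK -0.09 ± 0.285), Cd72 (-0.16 ± 0.12) and Cd96 (0.94 ± 0.269, adjusted p = 0.0677). Without obese ILC1 replicate 26, Cd96 was called higher in ILC1 over both diets (1.12 ± 0.108, adjusted p = 9.04e-05), in lean mice (0.00158) and in obese mice (0.00303). For Cd72 the normalized counts ran from 2175 to 3279 over all 12 libraries. Of the ligands and competitor of CTLA-4, Cd86 and Cd28 were tested and 0 called in all 6 comparisons by edgeR's quasi-likelihood test. Cd86 was at an unadjusted p below 0.05 in ILC1 against NK cells over both diets, where DESeq2 and the likelihood-ratio test called it. Cd274, the gene of PD-L1, was not called in any of the 6 (log2 fold change ILC1 to NK 0.75 ± 0.29, adjusted p = 0.178, unadjusted p = 0.0251), though DESeq2 called it in obese mice.

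The tested genes most like each member in log2 CPM, the counts scaled to library size, over the 12 libraries are given as a description, since the points share their 4 groups and obese ILC1 replicate 26. Cd200r1 was closest to Cxcr6 (Pearson r = 0.979), Cd200r2 (0.978) and Cxcr3 (0.96), and Cd200r2 to Cxcr6 (0.985), Cd200r1 (0.978) and Ccr8 (0.967). Cd101 was closest to Cd63 (0.959), Cd200r1 (0.956) and Apol7b (0.942). Cd200r4 had Chn2 (0.939), Acot7 (0.929) and Cd96 (0.916), and Cd300lf had Ap1m1 (0.962), Anxa1 (0.913) and AB124611 (0.903). Cd300ld was closest to C1qc (0.974) and C1qa (0.971), complement genes of macrophages, then Aif1 (0.957), and Cd300a to Cd79a (0.945), a B cell gene, then Aif1 (0.94) and Atp6ap1 (0.926). The values were lower for Cd200r3, with Ccdc162 (0.917), Crmp1 (0.904) and Cap2 (0.86), and for Ctla4, with Chst2 (0.896), Cd93 (0.893) and Adam8 (0.875).

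The promoter windows of RefSeq (GRCm38.p6, 250 bases before to 50 after the start) were found for 9 of the genes. They were searched on both strands for a T-box core (GGTGTG), a RUNX core (TGTGGT), an AP-1 site (TGANTCA) and an ETS core (GGAAGT), which occur in 19%, 16.8%, 7.81% and 23.8% of 32851 mouse promoter windows. The windows of Cd200r2 and Cd101, which were higher in ILC1, and of Cd300lf, which was lower in lean ILC1, are shown for comparison (5′ to 3′ on the strand of the gene, motif matches in capitals).
Cd200r2 (chr16:44866847-44867146, plus strand): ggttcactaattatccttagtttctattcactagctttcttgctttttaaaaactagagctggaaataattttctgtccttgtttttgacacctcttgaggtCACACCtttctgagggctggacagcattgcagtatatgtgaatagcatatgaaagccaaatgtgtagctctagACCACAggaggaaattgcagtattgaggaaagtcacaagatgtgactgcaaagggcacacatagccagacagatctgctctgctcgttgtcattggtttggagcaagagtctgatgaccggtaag
Cd101 (chr3:101029504-101029803, minus strand): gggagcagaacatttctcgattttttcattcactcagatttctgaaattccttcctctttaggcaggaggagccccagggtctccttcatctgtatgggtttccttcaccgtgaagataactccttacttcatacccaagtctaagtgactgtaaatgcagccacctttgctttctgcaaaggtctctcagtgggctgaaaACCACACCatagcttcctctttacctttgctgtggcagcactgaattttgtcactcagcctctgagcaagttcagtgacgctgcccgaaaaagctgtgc
Cd300lf (chr11:115133943-115134242, minus strand): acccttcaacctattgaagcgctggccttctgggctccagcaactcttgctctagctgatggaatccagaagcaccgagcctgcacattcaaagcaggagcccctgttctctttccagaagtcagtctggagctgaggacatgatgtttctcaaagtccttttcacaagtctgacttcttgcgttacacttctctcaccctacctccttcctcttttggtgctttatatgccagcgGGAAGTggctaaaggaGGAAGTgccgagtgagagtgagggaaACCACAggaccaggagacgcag
In the Cd200r2 window the T-box core lay 148 bases and the RUNX core 75 bases before the start, both on the opposite strand. In the Cd101 window both cores lay on the opposite strand and overlapped each other, 47 and 49 bases before the start. The Cd300lf window held 2 ETS cores and a RUNX core and no T-box core. Cd300ld also held 2 ETS cores, and the other 5 windows (Ctla4, Cd300a, Cd200r4, Cd200r3 and Cd200) held none of the 4 motifs. Each match says only that these letters are present in the window.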

How the data were processed

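NK cells and ILC1 of 6 mice gave 12 libraries in 4 groups of 3. Per the labels, the submitters' processing notes name bcl2fastq 2.19, Trimmomatic 0.36.5, STAR 2.5.2b and featureCounts 1.6.0.2 with build mm10, and libraries were made with the NEBNext low input kit. The annotation and the strand setting are not given in the sources used here. The deposited table holds, for each gene and library, the read count the authors obtained, and a second value, here treated as a score, which is the authors' normalized count rounded to whole numbers. Factors recovered from the pair ran from 0.57 to 1.5157. Symbols up to Cyp26b1 were analysed (5545 complete rows, with 1 incomplete row left out and 9 empty columns), so totals cover only these genes and p-values are adjusted over them. The methods of the study name SARTools; its thresholds, 0.05 for the adjusted p and 2 for the fold change, were kept.

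Counts were tested in R 4.3.3 with edgeR 4.0.16 (TMM, filterByExpr, glmQLFit, glmQLFTest), in 1 model of 4 groups over 2606 tested genes, with Benjamini-Hochberg adjustment. Standard errors were taken from the log2 fold change and the square root of its F statistic. The prior count was 2. DESeq2 1.42.0, edgeR's likelihood-ratio test, other normalizations, filters and subsets, robust dispersions, a replicate block (the mouse between populations, the replicate number between diets) and each library left out in turn were alternatives. DESeq2, and the mouse as a block, each without replicate 26 of the obese mice, were added after seeing the data. The tests were tested on simulated data. Group values are means of the normalized counts ± SD. A group with all libraries at or under 3 counts was given a fold as a bound against that floor, per library. That floor covers counting error only. Libraries of a group differed by more than sampling noise and none were identical.

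The design text says that each animal gave both populations, so a number within a diet pairs an NK with an ILC1 library, and deviations of such pairs from their group means correlated at r = -0.0763 to 0.141. A number shared between diets joins different animals (r = -0.0145 to 0.0768).

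All 10 genes are named whatever their values, with up to 4 genes of each related list by mean count, the 3 tested genes most like each member, and marker lists as sums. Clec12a, Btla, Cd5, Cd86, Cd300c and Cd300e were named after their values were seen. The members and lists were chosen with earlier results of these data known. Exon lengths and positions are from GENCODE vM21 (GRCm38), promoter windows from RefSeq (GRCm38.p6). A planned comparison of the proteins was not run.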

Additional observations from a re-analysis of the deposited data

How the results depend on the processing

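Values are log2 fold changes of the 9 tested genes or counts of those called, and the cause of a change was not tested. Over genes and comparisons, the alternatives set at the start left direction and call as they were in 984 cases, took a call away in 46, added one in 17 and turned the sign in 15, and the 2 added after seeing the data did so in 69, 4, 9 and 8. Cd200, Cd200r3, Cd300ld and, in lean NK cells, Cd101 had 0 counts in several libraries, and whether more reads would detect them there was not tested.

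The number called higher in obese NK cells was 2 in DESeq2, 1 in the likelihood-ratio test and 2 in DESeq2 without obese ILC1 replicate 26, in place of 0. In obese ILC1 it was 1 in the likelihood-ratio test and 1 higher and 1 lower in DESeq2 without that library, in place of 0. For the difference of the diet effects it was 1 higher in the likelihood-ratio test, 1 lower in DESeq2 and 1 of each in DESeq2 without that library, in place of 0. For ILC1 over NK cells over both diets it went from 4 to 2 with at least 10 counts in every library, and lay between 3 and 5 over the fits with 1 library left out. In lean mice it went from 3 to 5 in DESeq2 without replicate 26, and lay between 3 and 4 over the fits with 1 library left out. In obese mice it went from 3 to 5 in the likelihood-ratio test and to 0 with only the libraries compared, and lay between 0 and 5 over the fits with 1 library left out. The number called lower, both over both diets and in lean mice, went from 1 to 0 in DESeq2, which gave Cd300lf no adjusted p. It also went to 0 with at least 10 counts in every library, a filter that takes Cd300lf out. With 1 library left out it stayed at 1 or fell to 0. DESeq2 without replicate 26 called Cd300lf lower in both.

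With the mouse as replicate block, the pairing left 0 genes called higher in obese mice in place of 3, and 0 called lower over both diets and in lean mice in place of 1. With obese mouse 26 also left out, 0 were again called lower, while Cd200r1 and Cd200r2 were called higher in obese mice. The block changed no other number of calls by more than 1.5 times among the 9 genes. Without obese mouse 26 the blocked value turned sign for Cd300a, to -0.28 over both diets, -1.46 in obese mice and -2.36 for the difference of diet effects, for Cd200r3 in obese mice (-4.12) and for Cd300ld for the difference (-4.9).

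Other values that turned sign were Cd200r4 by diet in NK cells (0.02 with library totals, and -0.06 to 0.06 with 1 library left out) and Cd200r2 by diet in ILC1 (0.09 in DESeq2 without replicate 26). For Cd200r3 in obese mice (-4.35) and Cd300ld for the difference (-1.41) DESeq2 without replicate 26 did so, and for Cd300ld DESeq2 also with all libraries (-9.7). With 1 library left out, the ranges that crossed 0 were -0.12 to 0.55 for Cd300a by diet in NK cells, -0.38 to 0.65 for Cd200r1 and -1 to 0.08 for Cd200r2 by diet in ILC1, and in obese mice -5.05 to 4.19 for Cd200r3, -0.05 to 0.75 for Cd200r4 and -2.08 to 0.11 for Cd300lf. Without replicate 26 or mouse 26, obese ILC1 had 0 counts of Cd200r3, so those values depend on the prior count or the fit and give no size. For the difference of diet effects the ranges were -2.21 to 5.41 for Cd300ld and -4.37 to 0.33 for Ctla4.

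Over all genes tested, the number called higher in ILC1 over both diets was 82 and ran from 32 to 165 over the alternatives, and the number lower was 31 and ran from 14 to 124. In lean mice they were 39 (16 to 126) and 21 (5 to 89), and in obese mice 14 (0 to 107) and 10 (0 to 92). By diet they were 0 and 0, with up to 10 higher in NK cells and up to 56 higher and 39 lower in ILC1, and for the difference 0 and 0, with up to 7 higher and 23 lower.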
